A study of Mus musculus with 6 samples.

Results

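Transcripts of the EGF family ligands and the ErbB receptors were measured by RNA-seq in whole kidneys of 3 control and 3 iron deficient (FeD) mouse pups. The genes were taken by name and not by a rule on their values, though earlier results of these data were known. They comprised 5 ligands (Egf, Btc, Hbegf, Tgfa and Nrg4), 4 receptors (Egfr, Erbb2, Erbb3 and Erbb4) and the receptor inhibitor Errfi1. They were 10 of 24422 genes counted, and all 10 were among the 15145 genes with enough counts to be tested. All pups were wild type C57BL/6 and were taken at postnatal day 15. FeD pups were born to dams whose synthetic feed held 2 to 6 ppm iron, and control pups to dams whose feed held 220 ppm. The study's methods name a different feed product for each group, so iron level and other feed contents cannot be told apart. Per the labels the dams were 8 weeks old when allotted to a diet, were mated after 1 month and stayed on their diet through pregnancy and until the kidneys were taken, while the study's methods give a shorter time on the diet before mating. The number of litters was not given in the sources used here, so litter and diet cannot be told apart, and P values measure the spread between these kidneys.

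EGF family ligands are made as membrane-bound precursors that proteases release from the cell surface. They bind ErbB receptors, which pair with one another and signal through the MAP kinase, PI3 kinase and STAT branches. ErbB2 has no known ligand of its own and ErbB3 has little kinase activity, so both act mainly as partners. In the kidney, Egf is made chiefly in the thick ascending limb of Henle and the distal convoluted tubule and rises after birth as these segments mature, and the family is known for its part in tubule growth and magnesium handling.

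Library totals were 16189041 to 20374327 counts in control and 13732173 to 20853293 counts in FeD kidneys. FeD kidney 2 carried adrenal transcripts, with a sum of 9949 normalized counts over 5 adrenal markers against 131 to 297 in the other 5 kidneys. Xist and 4 Y-linked genes marked control kidneys 1 and 2 and FeD kidney 3 as female and the other 3 as male, which the labels do not give. Proximal tubule markers were lower in FeD kidneys for 6 of 7 genes (85.7%, against 23.3% of all tested genes). Their sums were 60867 to 66923 normalized counts in FeD kidneys against 136171 to 146155 in control.

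In FeD kidneys Egf fell 3.08-fold, while Btc, Tgfa, Erbb3 and Errfi1 rose and Hbegf, Nrg4, Egfr, Erbb2 and Erbb4 did not pass the test. By the edgeR quasi-likelihood test at a Benjamini-Hochberg adjusted P under 0.05, 4 of the 10 genes were higher, against 22.4% of all tested genes, and 1 was lower, against 23.3%. When a change of at least 2-fold was also asked for, 3 were higher (Btc, Erbb3 and Errfi1), against 4.34% of tested genes, and 1 was lower (Egf), against 5.69%. The kidneys of the groups did not overlap for 6 of the 10, against 58.1% of tested genes. The median log2 fold change of the 10 was 0.18, and that of all tested genes was near 0. Without FeD kidney 2, the counts were 4 higher and 2 lower, the added gene being Nrg4, and with sex as a term in the fit, an alternative chosen after seeing the data, they were 5 higher and 1 lower, the added gene being Erbb4.

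**Figure D1:**
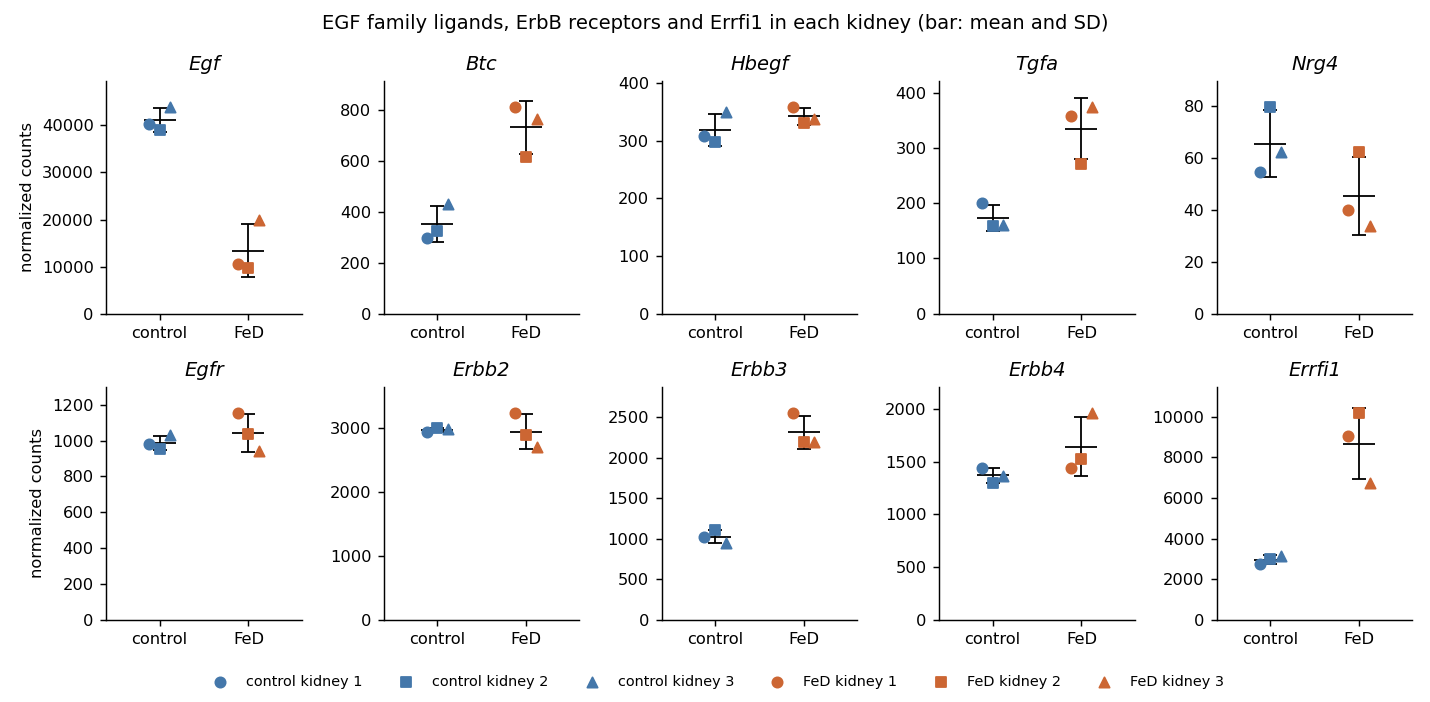
Normalized counts (library size scaled by TMM, linear axes from 0) of the 10 genes in each of 3 control (blue) and 3 FeD (orange) kidneys, with the mean and SD of each group in black. Egf was lower in all 3 FeD kidneys, and Btc, Tgfa, Erbb3, Erbb4 and Errfi1 were higher in all 3, Erbb4 by a margin of a few counts only.

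Egf, the founding ligand of the family, lies on chromosome 3 (mm9, 129380493 to 129458240, minus strand). Its promoter and that of Errfi1 are shown because these genes had the largest changes among the 10 and their promoters differed widely in CpG dinucleotides. Each is the 250 bases before the RefSeq start on GRCm38.p6, Egf at chr3:129755323-129755572 on the minus strand and Errfi1 at chr4:150854820-150855069 on the plus strand. Capitals mark matches on either strand to 3 motifs, the hypoxia response core ACGTG, the TATA box TATAAA and the GC box GGGCGG.
Egf: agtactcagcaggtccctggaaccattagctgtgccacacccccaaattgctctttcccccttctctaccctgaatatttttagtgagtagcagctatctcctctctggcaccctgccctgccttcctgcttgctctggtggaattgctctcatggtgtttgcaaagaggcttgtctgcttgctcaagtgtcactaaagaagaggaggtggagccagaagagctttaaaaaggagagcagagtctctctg
Errfi1: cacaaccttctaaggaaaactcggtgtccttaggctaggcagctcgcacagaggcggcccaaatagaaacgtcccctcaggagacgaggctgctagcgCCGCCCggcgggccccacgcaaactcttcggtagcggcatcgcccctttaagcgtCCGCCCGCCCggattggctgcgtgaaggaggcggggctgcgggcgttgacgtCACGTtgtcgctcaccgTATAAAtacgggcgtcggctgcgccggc
The Egf window held 0 CpG and none of the 3 motifs. The Errfi1 window held 30 CpG, against a median of 6 and quartiles of 2 and 16 over 32851 mouse promoters. Counted to its leftmost base, the Errfi1 window had the hypoxia response core 45 bases and the TATA box 28 bases before the start, and GC boxes 152, 97 and 93 bases before it, the last pair overlapping. Of all promoters, 16.6% held the core, 12.4% the TATA box and 32.7% the GC box. A match describes letters in this window and is not evidence of binding. RefSeq windows were found for 8 of the 10 genes, and those shown are the ones whose start lies in an mm9 GENCODE transcript. Another Egf window, whose start does not, held 15 CpG and 1 hypoxia response core 60 bases before its start, and another Errfi1 window held 1 CpG and none of the motifs.

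Egf held 40339, 39073 and 43943 normalized counts in control kidneys 1 to 3 and 10544, 9722 and 19812 in FeD kidneys 1 to 3. All FeD kidneys lay below all control kidneys, and FeD kidney 3 held more Egf than the other FeD kidneys. The log2 fold change was −1.62 (SE 0.25, 95% interval −2.20 to −1.04), a 3.08-fold lower level, with an adjusted P of 0.00139 in edgeR. In whole kidneys, fewer cells of a type and less RNA per cell cannot be told apart. Without FeD kidney 3 the log2 fold change was −2.01, and without FeD kidney 2 it was −1.42. Within the female kidneys 40339 and 39073 in controls stood against 19812 in FeD, and within the male kidneys 43943 stood against 10544 and 9722.

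The markers of the segments that make Egf moved less than Egf did in the thick ascending limb, and as much or more for some genes of the distal convoluted tubule. Of 6 thick ascending limb markers, 2 fell (33.3%, against 23.3% of all tested genes). They were Cldn10, a paracellular channel protein, with a log2 fold change of −0.38, and Ptger3, a prostaglandin receptor, with −0.55 (adjusted P = 0.0361 and 0.0422, edgeR). Umod, the segment's main secreted protein, had a log2 fold change of −0.40 (adjusted P = 0.0651), and Slc12a1, the sodium-potassium-chloride cotransporter, one of 0.13 (adjusted P = 0.585). Kcnj1, a potassium channel, had −0.29 and Cldn16, a channel for magnesium, 0.08. The summed level of the 6 markers was 114694 to 121809 normalized counts in control kidneys and 101229, 85937 and 142117 in FeD kidneys 1 to 3, so the groups overlapped and FeD kidney 3, which held the most Egf of the FeD kidneys, also had the highest sum of all.

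Relative to the thick ascending limb markers, Egf was lower in all FeD kidneys. The log2 difference between Egf and the mean of these markers was 2.81, 2.73 and 2.88 in control kidneys and 1.13, 1.30 and 1.69 in FeD kidneys. The groups did not overlap, and the difference of the means was −1.44 (exact two-sided permutation test, P = 0.10, the smallest that 3 against 3 can give). With Umod and Slc12a1 alone it was −1.53 (exact P = 0.10).

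Of 5 distal convoluted tubule markers, Slc12a3, the thiazide-sensitive cotransporter, fell (log2 fold change −1.56, adjusted P = 0.000263, edgeR), as did Pvalb, a calcium-binding protein (−5.08, adjusted P = 5.92e-05). These 2 were 40% of the list, while 23.3% of all tested genes were lower. Trpm6, the magnesium channel that Egf is known to stimulate, had a log2 fold change of −0.59 (adjusted P = 0.0665), Klhl3 of −0.16 and Wnk1 of −0.07. The summed level was 35355 to 42543 normalized counts in control and 21508 to 22419 in FeD kidneys. Relative to the mean of these 5 markers, Egf was 4.48, 4.39 and 4.35 log2 units higher in control kidneys and 3.89, 3.52 and 5.34 in FeD kidneys. These groups overlapped (difference of means −0.16, exact permutation P = 0.90). The mean gives each marker equal weight, and Pvalb lowered it most, with 9, 17 and 4 raw counts in FeD kidneys against 296 to 452 in control. The fitted log2 fold change of every other marker lay above that of Egf (−1.62). The overlap therefore does not show that Egf followed these markers as a set, and a comparison without Pvalb was not made. In FeD kidney 3, which held the most Egf of the FeD kidneys, Slc12a3, Pvalb, Trpm6 and Klhl3 were the lowest of all 6 kidneys and Wnk1 the highest, and the summed level (21616) lay between those of the other FeD kidneys. The part of segment composition in the fall of Egf was not tested.

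**Figure D2:**
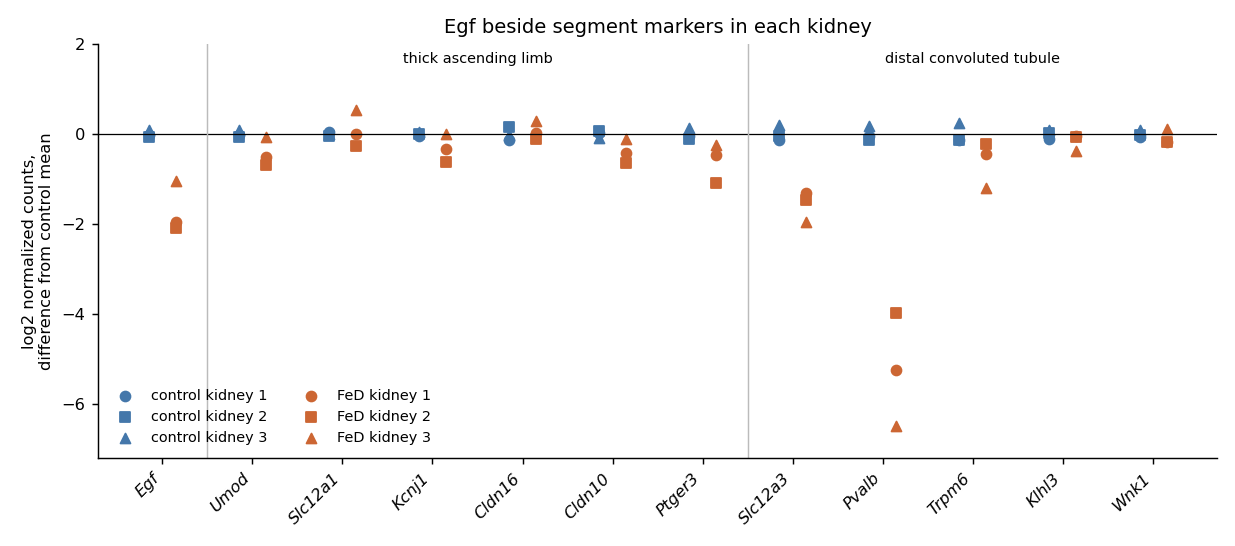
Log2 normalized counts (plus 0.5) of Egf, 6 thick ascending limb markers and 5 distal convoluted tubule markers in each kidney, as the difference from the mean of the control kidneys. The fitted log2 fold change of Egf was −1.62, below that of each thick ascending limb marker and near that of Slc12a3 (−1.56), while that of Pvalb was −5.08.

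Btc, which encodes betacellulin, a ligand of EGFR and ErbB4, rose in FeD kidneys (chromosome 5, mm9, 91786287 to 91831939, minus strand). It held 299.5, 323 and 433 normalized counts in control and 814, 618 and 768 in FeD kidneys. All FeD kidneys were above all controls, with control kidney 3 the highest of its group. The log2 fold change was 1.06 (SE 0.16, 95% interval 0.70 to 1.42; adjusted P = 0.00117, edgeR). Beside it, markers of collecting duct principal cells had sums of 22314 to 30895 in control and 33342 to 53765 normalized counts in FeD kidneys. Of these 5 markers, 3 were higher (60%, against 22.4% of all tested genes) and 1 was lower (20%, against 23.3%). Their part in the Btc result was not tested.

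Tgfa, transforming growth factor alpha, a ligand of EGFR, rose by slightly less than 2-fold (chromosome 6, mm9, 86145420 to 86225151, plus strand). It held 201, 158 and 161 normalized counts in control and 357, 272 and 374 in FeD kidneys. The groups did not overlap, and FeD kidney 2 was the lowest of its group. The log2 fold change was 0.95 (SE 0.16, 95% interval 0.59 to 1.31; adjusted P = 0.00177, edgeR), and it was 1.10 without FeD kidney 2 and 1.01 with the sex term.

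Hbegf and Nrg4 did not pass the test. Hbegf, the heparin-binding ligand of EGFR and ErbB4 (chromosome 18, mm9, 36664583 to 36675459, minus strand), held 308, 298 and 349 normalized counts in control and 358, 330 and 338 in FeD kidneys. These ranges overlapped, and the 95% interval of the log2 fold change was −0.12 to 0.32 (adjusted P = 0.413, edgeR). Nrg4, a neuregulin that binds ErbB4 and is best known from brown fat (chromosome 9, mm9, 55068029 to 55174651, minus strand), was the lowest of the 10, with 54.7, 79.8 and 62.4 normalized counts in control and 40.0, 62.4 and 33.7 in FeD kidneys. The groups overlapped through FeD kidney 2, and the log2 fold change was −0.55 (95% interval −1.19 to 0.097; adjusted P = 0.144, edgeR). Without FeD kidney 2 it was −0.81 and passed the test (adjusted P = 0.0349).

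Fat markers and the mean Nrg4 level were lower in FeD kidneys, though Nrg4 did not pass the test. Of the fat markers, 4 of 5 genes were lower (80%, against 23.3% of all tested genes). Their sums were 3119 to 3209 in control and 782, 664 and 735 normalized counts in FeD kidneys 1 to 3. Ucp1, the brown fat uncoupling protein, held 831, 628 and 1005 in control against 19.0, 79.3 and 259 in FeD kidneys. Among the FeD kidneys, number 2 held the most Nrg4 and the lowest sum of fat markers. The part of these markers in the Nrg4 values was not tested. Of the Nrg4 exon bases, 8.97% also lie in exons of genes on the opposite strand, and the strand setting of the counting was not given in the sources used here, so some reads may belong to Fbxo22 or Gm15625.

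The make-up of the ligand transcripts shifted away from Egf without Egf losing first place. Per length (RPKM over merged exons, reads per kilobase scaled to TMM library size), the sum of the 5 ligands was 498 ± 31.3 in control and 184 ± 66.7 in FeD kidneys (SD, n = 3 each; exact permutation P = 0.10). The sum without Egf was 17.7 ± 1.85 and 28.1 ± 2.98 (exact permutation P = 0.10). Egf made up 96.6, 96.5 and 96.3% of the ligand sum in control kidneys and 80.2, 82.1 and 88.8% in FeD kidneys, with no overlap (exact permutation P = 0.10). The Btc share was 1.41 ± 0.20% and 8.47 ± 2.39%. Since the shares add up to the whole, a lower Egf level raises those of the other ligands, and the Hbegf share was 1.50 ± 0.033% and 4.73 ± 1.45% although its own level did not pass the test.

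**Figure D3:**
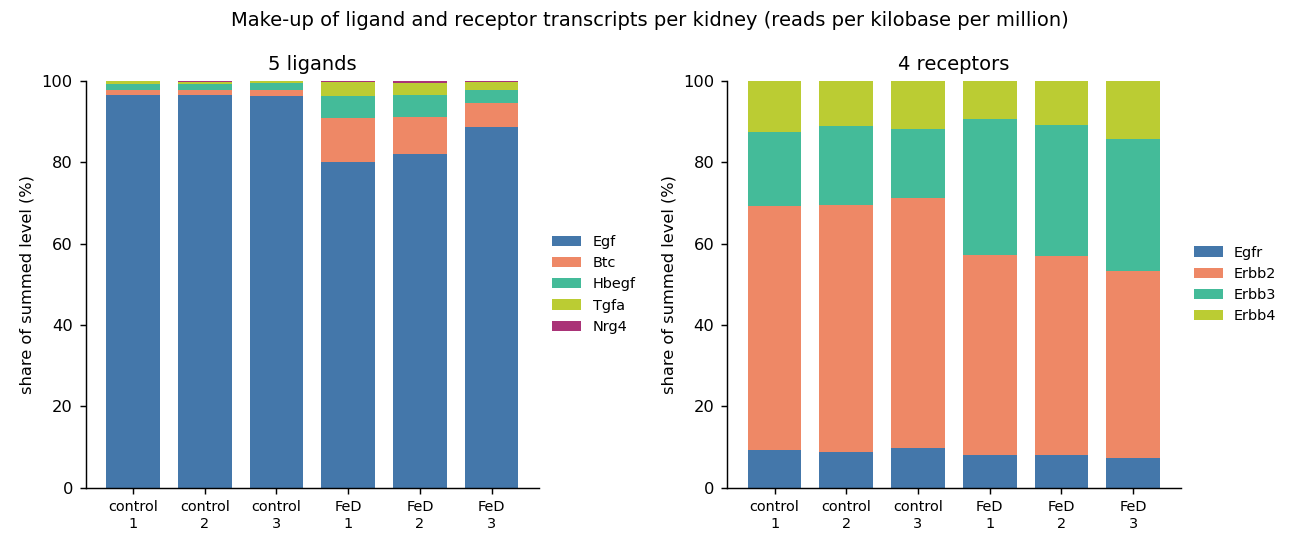
Share (%) of each gene in the summed level of the 5 ligands (left) and the 4 receptors (right) in each kidney, from RPKM over merged exons. Egf kept 80.2 to 88.8% of the ligand sum in FeD kidneys against 96.3 to 96.6% in controls, and the Erbb3 part of the receptor bars was wider in all FeD kidneys.

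Among the receptors, Erbb3 rose and the other 3 did not pass the test. Erbb3, the partner receptor that couples to PI3 kinase (chromosome 10, mm9, 128004579 to 128026708, minus strand), held 1022, 1108 and 944 normalized counts in control and 2548, 2193 and 2196 in FeD kidneys. Every FeD kidney was well above every control. The log2 fold change was 1.18 (SE 0.086, 95% interval 0.98 to 1.37; adjusted P = 5.32e-05, edgeR), and it was the smallest adjusted P among the 10 genes.

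Egfr, the receptor of Egf, Tgfa, Btc and Hbegf (chromosome 11, mm9, 16652206 to 16818161, plus strand), held 981, 954 and 1030 normalized counts in control and 1153, 1035 and 940 in FeD kidneys. Erbb2 (chromosome 11, mm9, 98273784 to 98299030, plus strand) held 2925, 2987 and 2977 in control and 3228, 2892 and 2691 in FeD kidneys. Both genes overlapped between groups, and in both FeD kidney 1 was the highest and FeD kidney 3 the lowest of the 6. The 95% intervals of the log2 fold change were −0.12 to 0.28 for Egfr (adjusted P = 0.502) and −0.18 to 0.16 for Erbb2 (adjusted P = 0.902, edgeR), so changes of 2-fold lay outside both.

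Erbb4, the receptor of Btc, Hbegf and the neuregulins (chromosome 1, mm9, 68078760 to 69154633, minus strand), held 1439, 1303 and 1369 normalized counts in control and 1443, 1528 and 1962 in FeD kidneys. The groups did not overlap, but FeD kidney 1 stood only just above control kidney 1, and FeD kidney 3 was the highest. The log2 fold change of 0.26 (95% interval 0.0044 to 0.52) did not pass the test (adjusted P = 0.0888, edgeR). It passed without FeD kidney 1 (0.37, adjusted P = 0.0394) and with the sex term chosen after seeing the data (0.32, adjusted P = 0.0321).

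Erbb3 made up more of the receptor transcripts in FeD kidneys, and the Erbb2 and Egfr shares were lower although their own levels did not pass the test. Since the shares add up to the whole, a higher Erbb3 level lowers those of the other receptors. Per length, the sum of the 4 receptors was 52.4 ± 0.49 in control and 65.6 ± 4.30 in FeD kidneys (SD, n = 3 each; exact permutation P = 0.10). Erbb3 held 18.2, 19.4 and 16.9% of it in control and 33.6, 32.1 and 32.5% in FeD kidneys, and Erbb2 held 60.1, 60.5 and 61.4% and 49.1, 48.9 and 46.0%. Neither gene overlapped between groups (exact permutation P = 0.10 for each). The Egfr share was 9.31 ± 0.44% and 7.84 ± 0.39% (exact permutation P = 0.10), and the Erbb4 share 11.8 ± 0.67% and 11.4 ± 2.48% (exact permutation P = 0.80).

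Errfi1, also known as Mig6, binds the kinase domain of active EGFR and ErbB2, blocks them and is itself induced by receptor signaling and by stress (chromosome 4, mm9, 150228028 to 150243001, plus strand). It held 2748, 2986 and 3158 normalized counts in control and 9073, 10191 and 6753 in FeD kidneys. The lowest FeD kidney, number 3, held more than the highest control. The log2 fold change was 1.55 (SE 0.14, 95% interval 1.22 to 1.88), a 2.92-fold higher level (adjusted P = 0.000141, edgeR). In a test against a 2-fold change in place of no change (edgeR glmTreat), Errfi1 passed and the other 9 genes did not, Egf with an adjusted P of 0.110 and Erbb3 with 0.204.

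**Figure D4:**
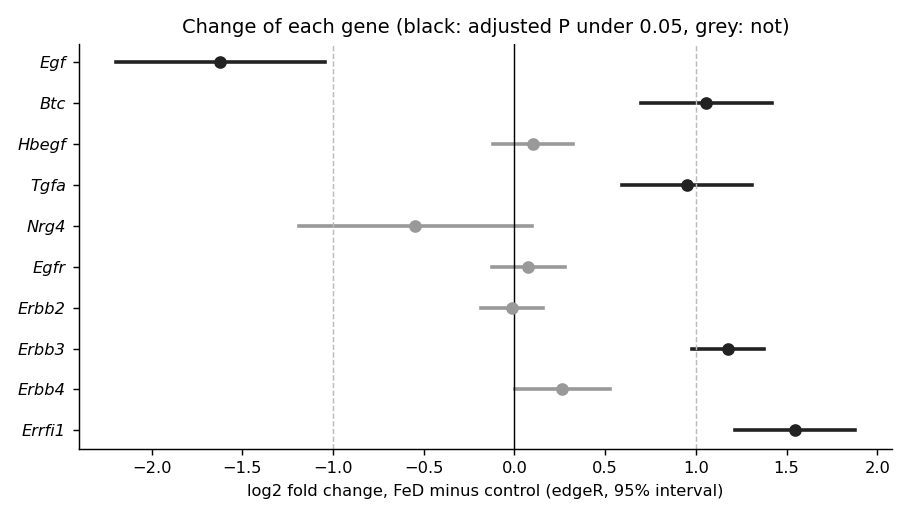
Log2 fold change (FeD minus control) of the 10 genes with its 95% interval from the edgeR fit; black marks an adjusted P under 0.05, grey a higher one, and dashed lines a 2-fold change. Only Errfi1 above and Egf below have intervals that lie wholly beyond a 2-fold change.

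Compared per length, the order of the 10 genes was nearly the same in both groups. In control kidneys Egf (481), Errfi1 (46.3), Erbb2 (31.8) and Erbb3 (9.53) led in mean RPKM, followed by Hbegf (7.50), Btc (7.04), Erbb4 (6.20), Egfr (4.88), Tgfa (2.58) and Nrg4 (0.604). Hbegf and Btc, and Btc and Erbb4, were neighbours whose kidneys overlapped. In FeD kidneys the means were 156 for Egf, 135 for Errfi1, 31.5 for Erbb2, 21.5 for Erbb3, 14.7 for Btc, 8.06 for Hbegf, 7.44 for Erbb4, 5.15 for Egfr, 4.97 for Tgfa and 0.418 for Nrg4. There Egf and Errfi1 overlapped, as did Hbegf and Erbb4, and Egfr and Tgfa. Egf and Errfi1 thus stood far apart in control and within the spread of the kidneys in FeD, and Btc moved above Hbegf.

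Of 75 other genes of the pathway in 6 lists, 70 were tested, and 28 were higher, 9 lower and 33 not called. The higher genes were 40% of those tested, against 22.4% of all tested genes, and the lower ones 12.9%, against 23.3%. At a 2-fold change or more, 4 were higher (5.71%, against 4.34% of all tested genes) and 1 was lower (1.43%, against 5.69%), and 46 did not overlap between groups (65.7%, against 58.1%), so the 2-fold higher and non-overlap shares lay near those of all genes. The median log2 fold change was 0.18. No test of the lists against other genes was made.

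Of the other ligands, Nrg1, the neuregulin that binds ErbB3 and ErbB4, rose, with 38.4, 28.8 and 43.7 normalized counts in control and 128, 62.4 and 62.2 in FeD kidneys. All FeD kidneys were above all controls, FeD kidney 1 far above the rest (log2 fold change 1.18, SE 0.33, adjusted P = 0.0205, edgeR). Nrg2 had a log2 fold change of −0.97 at 7.78 to 22.1 normalized counts and was not called. Areg, Ereg, Epgn and Nrg3 were not tested, with raw counts of at most 7, 4, 3 and 12 in a kidney. Among the ligand proteases and their partners, 1 of 8 genes was higher (12.5%, against 22.4% of all tested genes) and 2 were lower (25%, against 23.3%). Both shares lay near or below those of all genes. The lower ones were Adam12 with a log2 fold change of −1.11 and Adam19 with −0.51 (adjusted P = 0.00129 and 0.00144, edgeR). Timp3, an inhibitor of Adam17, rose (log2 fold change 0.37, adjusted P = 0.0133), and Adam10 and Adam17, the main ligand sheddases, had 0.08 and −0.15 and were not called.

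The adaptor and MAP kinase list had 8 higher of 20 genes (40%, against 22.4% of all tested genes) and 2 lower (10%, against 23.3%), with a median of 0.15. Among them Nras and Braf rose, with log2 fold changes of 0.47 and 0.60 (adjusted P = 0.000339 and 0.000433, edgeR), while Hras (−0.49) and Map2k2, which encodes MEK2 (−0.62), fell. The list of PI3 kinase, phospholipase and STAT genes had 4 higher of 11 (36.4%, against 22.4%) and 2 lower (18.2%, against 23.3%), with a median of 0.08. It was led by Stat3 (0.87, adjusted P = 0.000133, edgeR), Plcg1 (0.56) and Pik3ca (0.35). The negative regulators had 8 higher of 19 (42.1%, against 22.4%) and 2 lower (10.5%, against 23.3%), with a median of 0.29. Among them Cblb, a ubiquitin ligase of receptors, (log2 fold change 0.64), the ERK phosphatase Dusp4 (0.74) and the Ras pathway inhibitor Spred2 (0.54) rose, and Socs5 (−0.54) fell.

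The ERK-responsive list had the highest median of the 6, at 0.67, with 6 of 10 tested genes higher (60%, against 22.4% of all tested genes) and 1 lower (10%, against 23.3%). Fos held 46.1, 35.4 and 45.4 normalized counts in control and 361, 163 and 79.5 in FeD kidneys, and Egr1 held 231, 249 and 295 against 1199, 549 and 665. Both immediate early transcription factors were higher in all FeD kidneys, with the highest level in FeD kidney 1 and a wide spread within the group (Fos log2 fold change 2.24, SE 0.50, adjusted P = 0.00772; Egr1 1.64, SE 0.27, adjusted P = 0.00196, edgeR). Ier3, an early response gene, had 1.04 (adjusted P = 0.000495) and Etv5, an ETS transcription factor, 0.63 (adjusted P = 0.00105). Phlda1 went the other way and fell (−0.84, adjusted P = 0.00105). Ccnd1 also had a negative log2 fold change (−0.54) but was not called (adjusted P = 0.0846, edgeR). The summed level of the list was 7692 to 8892 normalized counts in control and 6741 to 11082 in FeD kidneys, so the groups overlapped.

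**Figure D5:**
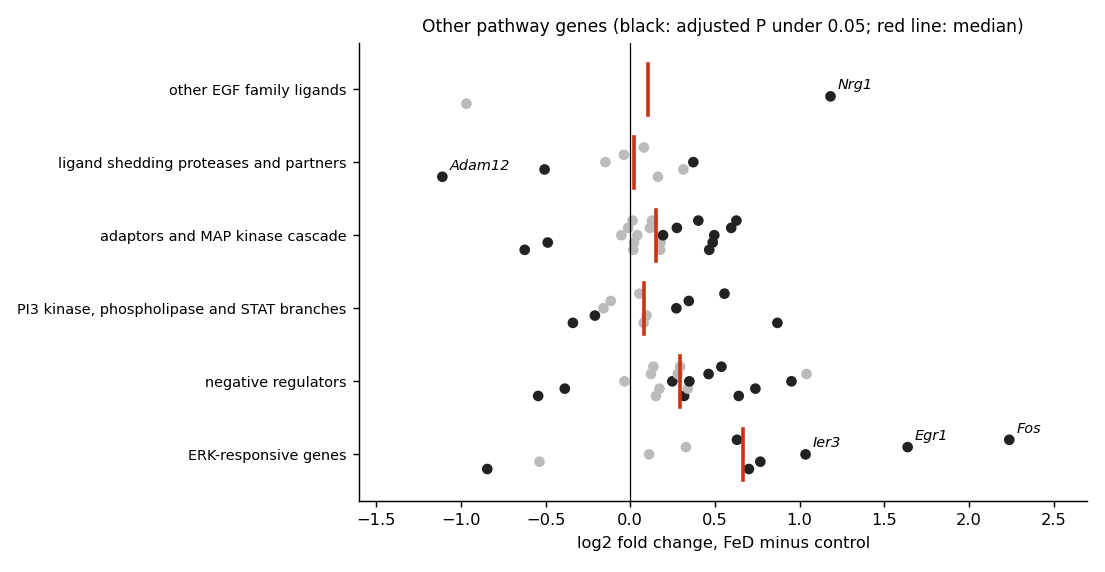
Log2 fold change (FeD minus control) of the 70 tested genes in the 6 pathway lists, 1 dot per gene, black where the adjusted P was under 0.05 and grey where not, with the median of each list as a red line and genes called at 2-fold or more named. Dots are offset vertically for legibility only. The ERK-responsive list has the highest median (0.67).

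Genes whose pattern over the 6 kidneys lay nearest to that of a member were found among 12934 tested genes by the root mean square difference of log2 normalized counts, each centred on its control mean. Hsph1, a heat shock protein, was nearest to Egf (0.039), followed by Slc16a4 and Apln (0.12 each), with log2 fold changes of −1.62, −1.54 and −1.71 in that order. Nearest to Btc were Ier3 (0.050), Dab1 (0.0996) and the principal cell water channel Aqp3 (0.11). Nearest to Erbb3 were Pamr1 (0.061), Tmem37 (0.061) and Gm11992 (0.072), and nearest to Errfi1 were 1500011B03Rik (0.062), Fgfbp1 (0.075) and Wdr92 (0.079). Nearest to Tgfa were Plch1 (0.085), Gcnt4 (0.11) and Arl4c (0.12).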

How the data were processed

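Poly-A RNA of 6 whole kidneys (3 control, 3 FeD) was sequenced by the authors. Per the labels the processing used CASAVA 1.8.2, Trimmomatic, TopHat2 2.0.11, HTSeq and the build mm9. The deposited values are raw counts of reads per gene and kidney, with no normalization and no pooling. The annotation, counting mode and strand setting were not given in the sources used here. Columns of other samples numbered 0.

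Groups came from the sample titles. The edgeR package (4.0.16, R 4.3.3) was used with filterByExpr, TMM scaling and its quasi-likelihood test. P values were adjusted by Benjamini-Hochberg across every tested gene. No kidneys of a group agreed within sampling noise (chi-square per degree of freedom 3.77 to 30.4). The study named DESeq2, which was run as an alternative (1.42.0), as was limma-voom (3.58.1). Normalized counts are counts scaled by the TMM library size to the mean library size. The SE of a log2 fold change is its size over the square root of F. Levels per length used merged exons of the GENCODE mm9 annotation. A floor of 3 counts, 0.144 to 0.218 CPM, covers counting error only. The fit was tested on simulated data. Other alternatives were 3 other scalings, 2 filters, the replicate number as a block, a test against 2-fold, other lengths and marker sets, leaving out each kidney, and a sex term added after seeing the data.

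The members, gene lists and motifs were chosen with earlier results of these data known. Named genes were the members, pathway genes called at 2-fold or otherwise the 3 smallest adjusted P values of a list, the segment markers, and the 3 genes nearest to a member among those averaging 50 normalized counts or more. Map2k2, Hras, Socs5 and other list genes outside this rule were named after their values were seen, and 1 gene that the rule names is not reported here. Promoter sequences are from RefSeq.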

Additional observations from a re-analysis of the deposited data

How the results depend on the processing

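Egf, Btc, Tgfa, Erbb3 and Errfi1 kept their direction and their call in all 15 alternatives other than the test against 2-fold. Their log2 fold changes ranged from −2.01 to −1.42 for Egf, 0.95 to 1.23 for Btc, 0.87 to 1.10 for Tgfa, 1.116 to 1.23 for Erbb3 and 1.42 to 1.71 for Errfi1, and the highest adjusted P of the 5 was 0.0124 (Tgfa). Hbegf (0.055 to 0.17) and Egfr (0.014 to 0.16) were not called in any of the 15. Against a 2-fold change (edgeR glmTreat), 1 gene was higher (Errfi1) and 0 were lower, where Egf had an adjusted P of 0.110, while the test against no change called 1 lower at 2-fold in edgeR, DESeq2 and limma-voom alike. With each kidney left out in turn, 1 to 2 of the 10 were lower (2 without FeD kidney 2, where Nrg4 was called), and 2 to 4 were higher at 2-fold. Btc lay below 2-fold without control kidney 1, control kidney 2 or FeD kidney 1 (log2 fold changes 0.950, 0.998 and 0.996). Tgfa lay above it without control kidney 1 or FeD kidney 2 (1.07 and 1.10). The 2-fold calls of these genes therefore depended on single kidneys. With each kidney left out, the 2-fold calls of pathway genes ran from 2 to 5 higher (2 without control kidney 1) and from 0 to 2 lower (0 without FeD kidney 1, 2 without control kidney 3). Erbb2 changed sign without FeD kidney 2 (0.018) and without FeD kidney 3 (0.059), within a leave-out range of −0.070 to 0.059, and was not called. The Egfr share of the receptors differed by −1.47 percentage points per length and by −2.45 from raw counts without length. Egf relative to markers was −1.44 with thick ascending limb and −0.16 with distal convoluted tubule markers. The mean of the distal convoluted tubule markers was lowered most by Pvalb (log2 fold change −5.08). The causes of the changes between alternatives were not tested.

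Same-numbered kidneys were different animals and did not deviate together (correlations −0.16, 9.57e-05 and −0.035). A fit with the replicate number as a replicate block gave Egf −1.70 and 4 higher and 1 lower of the 10, and changed no call of the 10. Depth limits the low genes most: Nrg4 held 39 to 72 raw counts, and its interval allows a fall of more than 2-fold.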
